A study of Mus musculus with 3 samples.

Results

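The genes described here are the 4 inhibitor of DNA binding genes (*Id1*, *Id2*, *Id3* and *Id4*), the ligand gene *Bmp4*, and 5 genes for proteins that block or modulate bone morphogenetic protein (BMP) or activin signalling (*Grem1*, *Bambi*, *Fst*, *Fstl1* and *Fstl3*). They were chosen by symbol, but with earlier results of these data known. All 10 were found among the 15554 rows of the expression table, each in 1 row. Gene expression was measured by RNA sequencing in NIH3T3, an established line of mouse embryonic fibroblasts grown in IMDM with serum. All cells were first kept in serum-free medium, and for a further 24 h were either left without stimulation (CTRL) or received GDF15 protein at 100 ng/mL or TGF-β protein at 4 ng/mL. RNA of each treatment was pooled into 1 library, so the 3 libraries carry no replicate error, no p-value is given, and differences describe these libraries only. The values are FPKM, fragments per kilobase of transcript and per 1e6 mapped fragments.

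TGF-β and activins act through the receptor-regulated Smads 2 and 3, whereas BMPs act through Smads 1, 5 and 9. Id genes are classical targets of BMP signalling, and TGF-β is known to raise or lower them depending on cell type and time. Id proteins have a helix-loop-helix but no basic region, so they pair with E proteins (the products of *Tcf3*, *Tcf4* and *Tcf12*) and keep them from DNA. Gremlin 1 binds BMPs outside the cell, BAMBI is a membrane pseudoreceptor without a kinase domain, and follistatin (*Fst*) and its relative *Fstl3* trap activins. *Fstl1* encodes a secreted glycoprotein of the SPARC family with a follistatin-like domain.

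Most of the lowest FPKM values lie near what 1 whole fragment is worth (78.6% to 80.1% of values between 0.5 and 1.5 fragments were within 0.1 of 1), and from these library depth was derived, in 1e6 fragments, as 18.7 (CTRL), 21.8 (GDF15) and 17.8 (TGF-β). The estimates need not be whole. Those of *Id4* were 49.96, 39.96 and 39.95 in the same order, close to whole numbers, whereas those of *Bambi* were 27.1, 25.6 and 19.1. Counting intervals (95%, exact) in the text come from such estimates, made with the longest coding transcript, and cover counting error only. The fibroblast label was checked against markers. Of 11 fibroblast genes, 10 averaged 1 FPKM or more, and the list summed to between 16437 and 18908 FPKM per library. By GDF15, 2 of the 10 were higher (*Col1a1* and *Fn1*) and 1 lower (*S100a4*) by over 1.5-fold, and by TGF-β 2 were higher (*Col1a1* and *Col1a2*) and 2 lower (*Pdgfra* and *Dcn*). Among all genes averaging 1 FPKM or more, 1.27% were higher and 1.55% lower by GDF15, and 2.54% and 3.06% by TGF-β. Of 6 epithelial, 5 endothelial and 4 muscle genes, 0 averaged 1 FPKM or more in any of these 3 lists, with sums of 0.268 to 0.735, 0.391 to 0.409 and 0.230 to 0.256. Among 6 leukocyte genes only *Cd68* did (FPKM 1.66 in CTRL, 1.14 with GDF15 and 1.67 with TGF-β).

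Sequence upstream of the RefSeq start of transcription is shown for both follistatin-like genes that were higher after stimulation and for *Id2* and *Id4*, the Id genes at low levels. RefSeq windows of 250 bases before and 50 bases after the start (GRCm38.p6, the assembly also called mm10) were matched for 7 of the 10 genes. *Id1*, *Bambi* and *Fst* were not matched. Only bases ahead of annotated GENCODE exons are printed, which leaves none of the *Id3* window, because the GENCODE transcript of *Id3* starts further upstream. The *Id2* bases printed lie ahead of the RefSeq start but inside the first intron of a longer GENCODE transcript of *Id2*. The windows were searched on both strands for CAGAC, the core of the Smad box, for GGCGCC, a GC-rich element bound by BMP-activated Smads, for TATAAA, and for CANNTG, the E-box that E proteins bind. In the sequences, capitals mark CAGAC and GGCGCC and TATAAA on either strand, and the other bases are in lower case.
*Fstl3*, chr10:79777024-79777271, plus strand: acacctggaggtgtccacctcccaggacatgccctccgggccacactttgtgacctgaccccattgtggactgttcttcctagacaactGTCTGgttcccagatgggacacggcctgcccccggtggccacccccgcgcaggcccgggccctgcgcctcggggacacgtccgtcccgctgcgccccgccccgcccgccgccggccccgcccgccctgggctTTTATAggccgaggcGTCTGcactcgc
*Fstl1*, chr16:37776805-37776872, plus strand: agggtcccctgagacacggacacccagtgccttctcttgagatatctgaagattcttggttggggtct
*Id2*, chr12:25096254-25096342, minus strand: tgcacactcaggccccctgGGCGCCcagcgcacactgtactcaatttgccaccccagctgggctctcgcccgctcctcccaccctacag
*Id4*, chr13:48260866-48261115, plus strand: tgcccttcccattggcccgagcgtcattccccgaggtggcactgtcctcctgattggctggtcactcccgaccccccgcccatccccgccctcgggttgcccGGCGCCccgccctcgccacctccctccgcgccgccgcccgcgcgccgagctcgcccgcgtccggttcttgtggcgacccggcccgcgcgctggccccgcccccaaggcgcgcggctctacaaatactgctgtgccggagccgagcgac

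The whole windows of *Id2* and *Id4* each held 1 GGCGCC, as did that of *Grem1*, whereas those of *Id3*, *Bmp4*, *Fstl1* and *Fstl3* held none. This motif occurred in 11.9% of 32544 distinct RefSeq windows. CAGAC was found at 2 positions in each of *Id3*, *Grem1* and *Fstl3* and at none in *Id2*, *Id4*, *Bmp4* and *Fstl1*, and it occurred in 49.5% of windows. The *Id3* window lies wholly inside the GENCODE gene, so its CAGAC positions are not upstream of that gene. *Fstl3* alone among the matched genes held TATAAA, which lay in 13.6% of windows. E-boxes were found at 3 positions each in *Bmp4* and *Fstl3* and at 1 in *Id2*, against 72.3% of windows with at least 1. These matches describe letters in the window and are not binding sites.

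By mean FPKM over the 3 libraries, the 10 genes reached from a level among the higher ones in the table to 0 in every library (*Bmp4*). *Fstl1* ranked 107th among the 15554 rows, *Id1* 3058th, *Id3* 4547th and *Fstl3* 7477th. These 4 genes averaged 1 FPKM or more, and the other 6 lay below it. In CTRL, the counting intervals of *Id1* (17.5 to 21.6) and *Id3* (15.9 to 19.7) overlapped. In GDF15 (16.03 to 19.7 against 8.57 to 11.1) and in TGF-β (21.7 to 26.4 against 9.70 to 12.7) they did not. The intervals of *Id2* and *Id4* overlapped in every library.

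**Figure D1:**
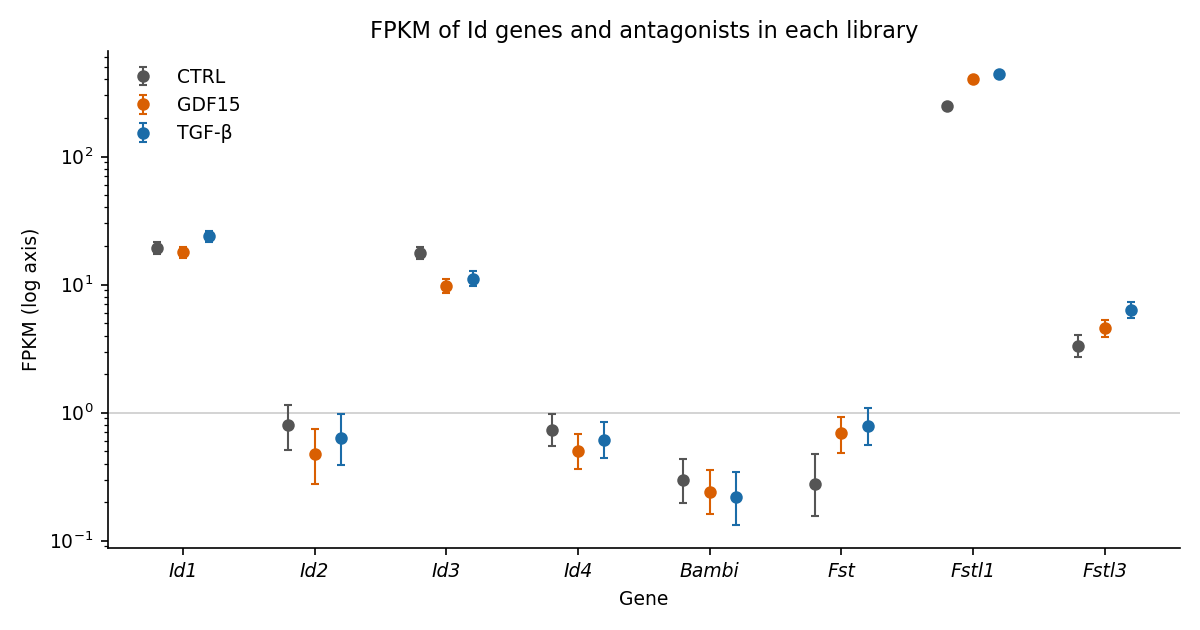
FPKM (log axis) of 8 of the 10 genes in the CTRL, GDF15 and TGF-β libraries, with 1 point per library and bars for the 95% counting interval; *Bmp4* and *Grem1*, listed at 0 in CTRL, are not drawn. *Fstl1* lies far above the others, *Id2*, *Id3*, *Id4* and *Bambi* are highest in CTRL, and *Fst*, *Fstl1* and *Fstl3* are lowest in CTRL.

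Each change is a difference of log2(FPKM + 1) between libraries, which makes changes at low FPKM look smaller than they are. A change over 2-fold, the criterion of the study, means a difference over 1, and a lower limit of 1.5-fold was followed beside it. Of the 10 genes, 0 passed 2-fold in any of the 3 comparisons. The share of all genes that passed was 0.289% for GDF15 against CTRL, 0.913% for TGF-β against CTRL and 0.103% for TGF-β against GDF15. At 1.5-fold, GDF15 had *Fstl1* higher and *Id3* lower than CTRL. Of all genes, 0.791% were higher and 1.02% lower to that degree, and of the 9226 genes averaging 1 FPKM or more these shares were 1.27% and 1.55%. At the same limit TGF-β had *Fstl1* and *Fstl3* higher and *Id3* lower, against 1.65% higher and 1.95% lower among all genes and 2.54% and 3.06% among the 9226. The balance of higher and lower genes depends on the processing. By GDF15, 123 genes were higher and 158 lower over 1.5-fold as reported, against 152 and 106 when corrected for expression, 138 and 47 for length, and 150 and 47 for length and GC content. By TGF-β, 257 were higher and 303 lower as reported, against 314 and 223 with a common upper quartile, 328 and 205 when corrected for expression, 330 and 193 for length, and 341 and 172 for length and GC content. Lower genes, such as *Id3*, were thus rarer, and higher genes, such as *Fstl1*, more frequent under these alternatives. The CTRL library enters both comparisons, and their directions are therefore not independent. Over the 10 genes the median was -0.03 for GDF15 and 0 for TGF-β, beside medians of 0 over all genes. For GDF15 it was positive after correction for length (0.06) and for length and GC content (0.03). With a minimum mean FPKM of 1 it was 0.12 over the 4 genes left.

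**Figure D2:**
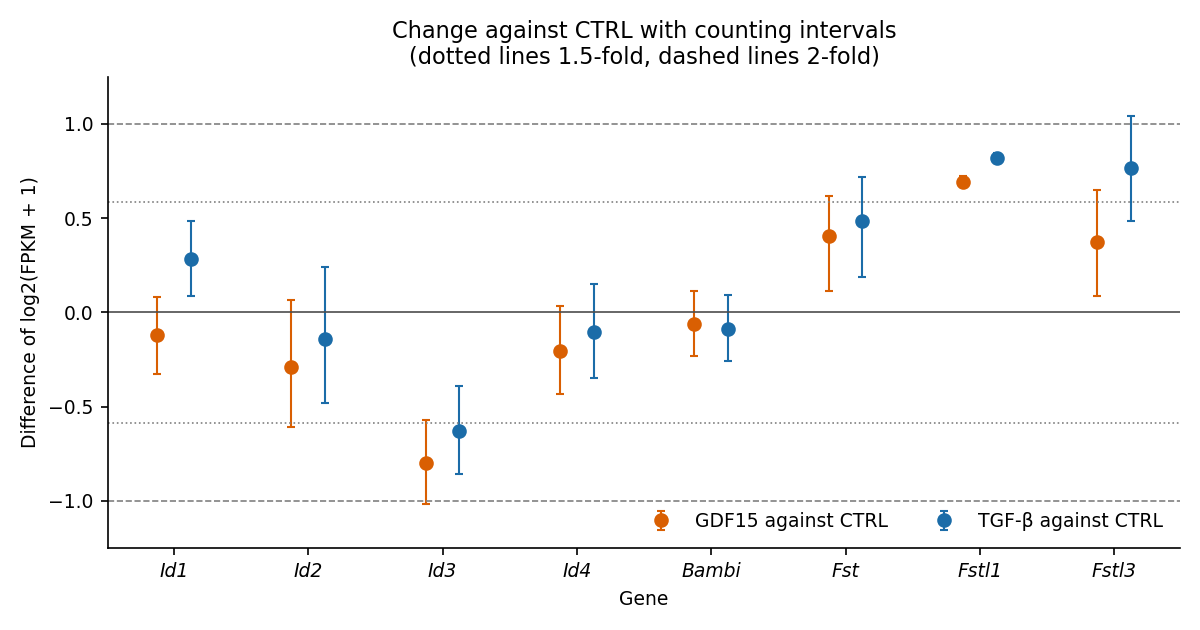
Change against CTRL (difference of log2(FPKM + 1)) of 8 genes by GDF15 and by TGF-β, with 95% counting intervals; dotted lines mark 1.5-fold and dashed lines 2-fold. *Id3* lies below the lower dotted line by both stimuli, *Fstl1* above the upper one by both, and *Fstl3* above it by TGF-β.

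*Id3* (ENSMUSG00000007872.3, chromosome 4 of GRCm38, 136143497 to 136145755, plus strand) had 17.7 FPKM in CTRL, 9.78 with GDF15 and 11.1 with TGF-β. CTRL was the highest library and the stimulated libraries lay close together, with overlapping intervals. The values correspond to about 357, 230 and 214 fragments. The FPKM ratio to CTRL was 0.551 in GDF15 (counting interval 0.466 to 0.654) and 0.627 in TGF-β (0.528 to 0.747). On the log2(FPKM + 1) scale *Id3* changed by -0.80 (-1.02 to -0.57) and -0.63 (-0.86 to -0.39), and both intervals include changes under 1.5-fold. Of the 500 genes nearest in mean expression, 0 had a lower change by GDF15 and 6 by TGF-β.

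Short transcripts tended to be lower in the stimulated libraries, and the transcripts of *Id1* and *Id3* are short (1160 and 1278 bases in GENCODE M21). For the 500 expressed genes nearest in length to *Id3*, the median was -0.19 for GDF15 and -0.16 for TGF-β, and 1 and 23 of them had a lower change than *Id3*. After correction for length alone, *Id3* changed by -0.61 by GDF15, which stayed over 1.5-fold, and by -0.46 by TGF-β, which did not. After correction for length and GC content of transcripts together it changed by -0.54 and -0.42, both under 1.5-fold.

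**Figure D3:**
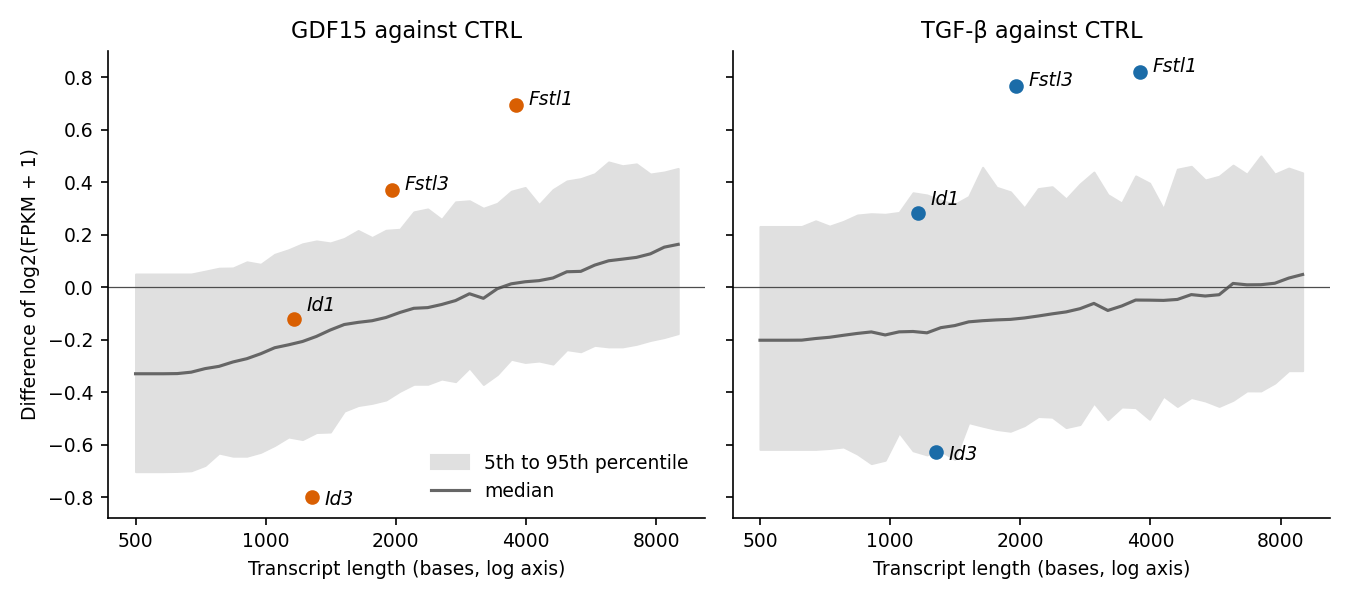
Change against CTRL (difference of log2(FPKM + 1)) against transcript length (log axis) for GDF15 and TGF-β. The line is the median and the band the 5th to 95th percentile of the 500 expressed genes nearest in length; points are the 4 members averaging 1 FPKM or more. *Id3* lies below the band by GDF15, and *Fstl1* and *Fstl3* lie above it in both panels.

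*Id1* (ENSMUSG00000042745.9, chromosome 2, 152736251 to 152737410, plus strand) had 19.5 FPKM in CTRL, 17.8 with GDF15 and 23.9 with TGF-β. TGF-β was the highest library, and the intervals of CTRL and GDF15 overlapped. The ratio to CTRL was 0.914 in GDF15 (0.788 to 1.06), an interval that includes 1, and 1.23 in TGF-β (1.06 to 1.42). The change by GDF15 was -0.12, but it was 0.10 after correction for length and 0.15 after correction for length and GC content, so its direction depends on the processing. The change by TGF-β was 0.28, under 1.5-fold, and kept its direction under every alternative.

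Within a library, the ratio of *Id3* to *Id1* needs no scaling between libraries. It was 0.911 in CTRL, 0.549 with GDF15 and 0.466 with TGF-β. The abundant Id genes were thus near parity in CTRL and unequal after either stimulus. *Id1* made up 50.3% of the summed FPKM of the 4 Id genes in CTRL, 62.3% with GDF15 and 65.9% with TGF-β. The share of *Id3* was 45.8%, 34.2% and 30.7%. The sum itself was 38.8 FPKM in CTRL, 28.6 with GDF15 and 36.3 with TGF-β. It was not corrected for length. By TGF-β, *Id1* and *Id3* changed by 0.28 and -0.63 as reported and by 0.48 and -0.42 after correction for length and GC content. The lower sum with TGF-β therefore holds for FPKM as reported only.

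*Id2* (ENSMUSG00000020644.9, chromosome 12, 25093799 to 25097140, minus strand) had 0.7997 FPKM in CTRL, 0.472 with GDF15 and 0.629 with TGF-β. *Id4* (ENSMUSG00000021379.2, chromosome 13, 48261228 to 48266026, plus strand) had 0.733, 0.503 and 0.615. CTRL was the highest and GDF15 the lowest library for both genes. All these differences lay within counting error, with a ratio of GDF15 to CTRL of 0.590 (0.307 to 1.13) for *Id2* and 0.686 (0.441 to 1.06) for *Id4*. The ratio of TGF-β to CTRL was 0.786 (0.427 to 1.503) for *Id2* and 0.839 (0.540 to 1.298) for *Id4*. They contributed 2.06% (*Id2*) and 1.89% (*Id4*) of the Id sum in CTRL.

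*Bmp4* (ENSMUSG00000021835.15, chromosome 14, 46383520 to 46390669, minus strand) was listed at 0 in all 3 libraries. *Grem1* (ENSMUSG00000074934.3, chromosome 2, 113746164 to 113758646, minus strand) was listed at 0 in CTRL and TGF-β and at 0.0319 in GDF15, which corresponds to an estimated 2.74 fragments (exact Poisson interval 0.619 to 8.77). Whether a value of 0 here is absence or a failed estimate was not tested. Of 79 ribosomal protein genes, 1 was also listed at 0 in every library, and 3633 to 3745 of all rows were at 0 in a library. No fold is given for either gene. *Bambi* (ENSMUSG00000024232.2, chromosome 18, 3507923 to 3516404, plus strand) had 0.298 FPKM in CTRL, 0.241 with GDF15 and 0.220 with TGF-β, or about 27.1, 25.6 and 19.1 fragments. The 3 intervals overlapped, and the ratios to CTRL were 0.810 (0.463 to 1.47) and 0.738 (0.388 to 1.38).

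*Fst* (ENSMUSG00000021765.9, chromosome 13, 114452290 to 114458951, minus strand) had 0.275 FPKM in CTRL, 0.687 with GDF15 and 0.787 with TGF-β. CTRL was the lowest library, and the stimulated libraries overlapped. The ratio to CTRL was 2.50 in GDF15 (1.27 to 4.77) and 2.86 in TGF-β (1.46 to 5.55), from about 13.5, 39.4 and 36.9 fragments if the longest coding transcript (2833 bases) is the source. With the shortest (1113 bases) these would be 4.70, 13.7 and 12.8 fragments, and the intervals of the ratio, 0.818 to 8.52 and 0.913 to 9.77, include 1. On the log2(FPKM + 1) scale the changes were 0.40 and 0.49, under 1.5-fold. Without a pseudocount they were 1.32 and 1.52, so that *Fst* was the only member over 2-fold under that alternative.

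*Fstl1* (ENSMUSG00000022816.11, chromosome 16, 37776873 to 37836514, plus strand) had 249 FPKM in CTRL, 404 with GDF15 and 441 with TGF-β. CTRL was the lowest library, and the 3 intervals did not overlap. The ratio to CTRL was 1.62 in GDF15 (1.59 to 1.65) and 1.77 in TGF-β (1.74 to 1.80). With an estimated 16721 to 31575 fragments per library, counting error is small and the missing replicates are the limit. The changes of 0.69 and 0.82 were exceeded by 8 and 17 of the 500 genes nearest in mean expression and by 1 and 7 of those nearest in transcript length (3789 bases). They stayed over 1.5-fold under all 8 alternatives.

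*Fstl3* (ENSMUSG00000020325.10, chromosome 10, 79777272 to 79782630, plus strand) had 3.32 FPKM in CTRL, 4.58 with GDF15 and 6.34 with TGF-β, about 109, 175 and 198 fragments. CTRL was lowest and TGF-β highest, and the interval of GDF15 (3.93 to 5.31) overlapped that of CTRL (2.73 to 4.01) but not that of TGF-β (5.48 to 7.28). The ratio to CTRL was 1.38 in GDF15 (1.08 to 1.77) and 1.91 in TGF-β (1.501 to 2.43). On the log2(FPKM + 1) scale, used for the 1.5-fold limit, the changes were 0.37 (0.09 to 0.65) and 0.77 (0.48 to 1.04). Both of these intervals include values on either side of that limit. Of its 1955 exon bases, 1157 are shared with exons of *Prss57* on the opposite strand, and whether strand was used in counting is not given in the sources used here. *Prss57* itself was listed at 0.0714 in CTRL, 1.2e-08 with GDF15 and 0.0399 with TGF-β. Exons of *Id4* share 82 and 171 bases with a pair of genes on the opposite strand, and those of *Bmp4* and *Fst* share 89 and 115 bases with 1 gene each. Under all 8 alternatives the change of *Fstl3* stayed over 1.5-fold by TGF-β and under it by GDF15.

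In the direct comparison of the stimulated libraries, 0 of the 10 genes passed 1.5-fold in either direction, against 0.624% of all genes higher in TGF-β and 0.399% higher in GDF15 (0.91% and 0.629% of the 9226). The largest differences were those of *Id1*, 0.41 (0.21 to 0.60), and *Fstl3*, 0.40 (0.14 to 0.65), both higher in TGF-β. Of the 500 genes nearest in mean expression, 490 lay below *Id1* and 492 below *Fstl3*. *Fstl1* was higher in TGF-β by 0.13 (0.10 to 0.15). The intervals of *Id2*, *Id3*, *Id4*, *Bambi* and *Fst* included 0.

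Other genes of the pathway were followed in 7 lists, which hold 91 genes, all of them in the table. Of these, 34 averaged 1 FPKM or more. GDF15 had 0 of the 34 higher and 2 lower by over 1.5-fold, and TGF-β had 1 higher and 4 lower. Of the 9226 genes averaging 1 FPKM or more, 1.27% were higher and 1.55% lower by GDF15, and 2.54% and 3.06% by TGF-β. The median of the 34 was 0.17 for GDF15 and 0.03 for TGF-β, beside -0.03 and -0.07 over the 9226 genes. These medians were not corrected for length, and several of the 34 are long, such as *Bmpr2* (12899 bases). For expressed genes over 6000 bases the median was 0.14 by GDF15 and 0.03 by TGF-β. For those up to 800 bases it was -0.36 and -0.22. Of the 34, only *Sparcl1* with TGF-β passed 2-fold.

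**Figure D4:**
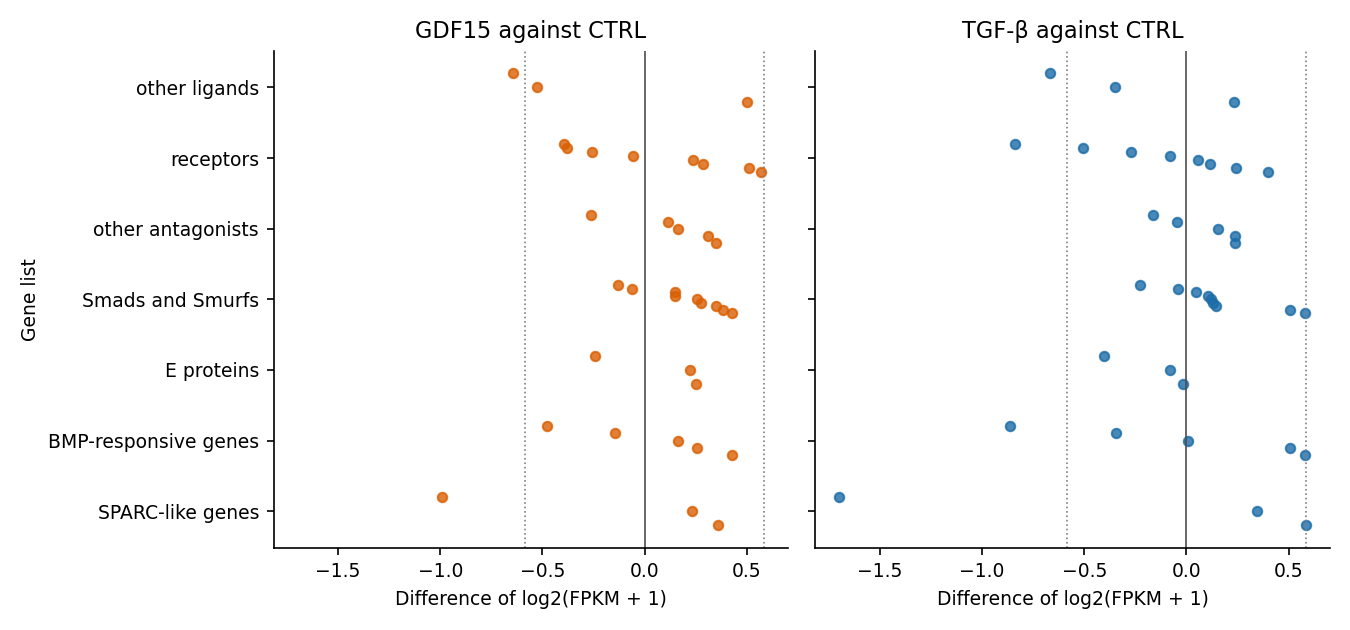
Change against CTRL (difference of log2(FPKM + 1)) of the listed pathway genes averaging 1 FPKM or more, by list, with 1 point per gene; dotted lines mark 1.5-fold. Most points lie between the dotted lines, and *Sparcl1* is the lowest point in both panels.

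Of 27 other ligand genes of the BMP and activin branches, 3 averaged 1 FPKM or more. *Inha*, which encodes the inhibin alpha subunit, had 15.1 FPKM in CTRL, 9.31 with GDF15 and 11.6 with TGF-β, with changes of -0.64 and -0.35. Its transcript is short (1475 bases), and after correction for length and GC content the change by GDF15 was -0.40, under 1.5-fold. *Gdf11*, a ligand of the activin branch, had 7.74, 5.07 and 4.49, with changes of -0.53 and -0.67. The third was *Inhba*, the activin A subunit, named after its values were seen, with 3.95, 6.01 and 4.82. The ratio of *Fst* to *Inhba* was 0.0697 in CTRL, 0.114 with GDF15 and 0.163 with TGF-β, and that of *Fstl3* to *Inhba* was 0.840, 0.762 and 1.32. In FPKM as reported, *Fst* was thus far below its ligand gene in each library, and *Fstl3* was above it only in TGF-β. These ratios were not corrected for length, and *Fstl3* (1955 bases) is shorter than *Inhba* (6390 bases). By GDF15, *Fstl3* and *Inhba* changed by 0.37 and 0.50 as reported. After correction for length and GC content they changed by 0.55 and 0.30, so which gene rose more depends on the processing.

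Of 15 receptor and coreceptor genes, 8 averaged 1 FPKM or more. The BMP coreceptor gene *Rgmb* was lower in TGF-β, at 40.1 in CTRL, 30.6 with GDF15 and 21.9 with TGF-β (changes of -0.38 and -0.84). *Rgma*, the most abundant of the list, had 90.0, 75.1 and 63.2, under 1.5-fold by either stimulus. The other receptors stayed under 1.5-fold, with 4 of the 8 higher and 4 lower than CTRL by each stimulus.

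Of 17 further extracellular antagonists, 5 averaged 1 FPKM or more, and 0 of these passed 1.5-fold by either stimulus. By GDF15 4 of the 5 were higher than CTRL and by TGF-β 3. The BMP antagonist gene *Nbl1* had 33.7 FPKM in CTRL, 36.6 with GDF15 and 39.99 with TGF-β, and *Twsg1*, whose product binds BMPs together with chordin, had 28.8, 36.0 and 27.8. Of 10 Smad and Smurf genes, 9 reached a mean FPKM of 1 and 0 passed 1.5-fold by either stimulus. *Smad7*, named after its values were seen, had 2.58 FPKM in CTRL, 3.28 with GDF15 and 4.36 with TGF-β, with changes of 0.25 and 0.58, the latter just under the limit. *Smad6*, named likewise, had 0.714, 1.31 and 1.44, with changes of 0.43 and 0.51. After correction for length and GC content, the changes by TGF-β were 0.70 and 0.67, both over 1.5-fold. The shared *Smad4* had 24.8, 27.6 and 25.7, and the ubiquitin ligase gene *Smurf1* had 21.6, 20.6 and 20.9.

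Among 12 other BMP-responsive genes, of which 5 reached a mean FPKM of 1, *Atoh8* was lower in TGF-β by over 1.5-fold. Its FPKM was 3.003 in CTRL, 1.87 with GDF15 and 1.20 with TGF-β (changes of -0.48 and -0.87). *Dlx2* had 9.79, 8.76 and 7.50, and *Runx2* 6.77, 7.71 and 6.81. *Smad7* and *Smad6*, the inhibitory Smad genes, also belong to this list and were higher than CTRL in both stimulated libraries. Of the 5 genes, 3 were higher and 2 lower than CTRL by each stimulus.

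The 3 E protein genes stayed under 1.5-fold. *Tcf3* had 50.7 FPKM in CTRL, 42.7 with GDF15 and 38.0 with TGF-β, and *Tcf12* had 31.1, 37.2 and 29.4. The sum of the 4 Id genes over the sum of the 3 E protein genes was 0.345 in CTRL, 0.246 with GDF15 and 0.371 with TGF-β. This ratio was not corrected for length, and the E protein transcripts (2950 to 8577 bases) are longer than those of *Id1* and *Id3* (1160 and 1278 bases). After correction for length and GC content, *Id1* and *Id3* changed by 0.15 and -0.54 by GDF15. The corrected changes of *Tcf3*, *Tcf4* and *Tcf12* were -0.11, -0.01 and 0.08. At the level of transcripts, the E protein genes summed to more than the Id genes in each library.

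Of 10 genes related to *Fstl1* by a follistatin-like domain, 3 reached a mean FPKM of 1. *Sparc*, a matrix-binding glycoprotein gene, had 1108, 1422 and 1666, with changes of 0.36 and 0.59. *Sparcl1* had 28.1 in CTRL, 13.6 with GDF15 and 7.94 with TGF-β, with changes of -0.99 and -1.70, and was the only pathway gene to differ over 1.5-fold between the stimulated libraries (-0.71). *Agrn*, the gene of the proteoglycan agrin, had 28.1, 33.2 and 36.0. The relatives of *Fstl1* did not move in a common direction.

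**Figure D5:**
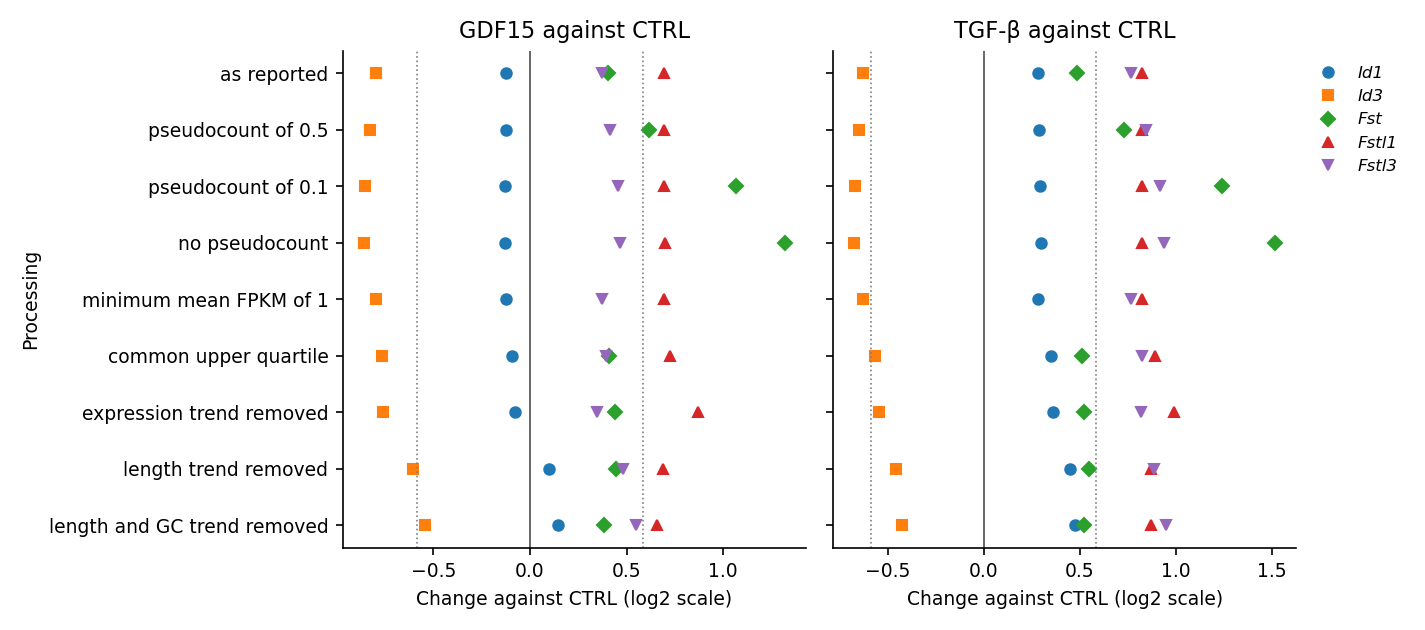
Change against CTRL (log2 scale) of *Id1*, *Id3*, *Fst*, *Fstl1* and *Fstl3* as reported and under the 8 alternatives; dotted lines mark 1.5-fold, and a missing point means that the alternative gives no value. *Fstl1* stays to the right of the dotted line in every row, *Id3* crosses the line under 1 alternative with GDF15 and under 4 with TGF-β, and *Fst* moves most with the pseudocount.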

How the data were processed

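NIH3T3 RNA pooled within each treatment was sequenced as 1 stranded mRNA library per treatment, in single-end mode. The authors obtained FPKM from Cufflinks and restricted the table to UniProt-reviewed protein coding genes. The submitters' processing notes list TopHat 1.3.2, Bowtie 0.12.9, Cufflinks 2.0.2 and mm10, and the annotation is not given in the sources used here. Columns were matched to samples by the treatment in their names.

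From the deposited FPKM, log2(FPKM + 1) was computed. With 1 library per treatment, no test was run. The members, gene lists and limits were chosen with earlier results of these data known. The genes named are the 10 members, genes of the 7 pathway lists over 1.5-fold by either stimulus averaging 1 FPKM or more, and the 2 most abundant of each of these lists. Genes of the marker lists were named after their values were seen. Genes of most similar pattern were to be named for members over 2-fold, of which there were none. Motifs were chosen after the values were seen. 1 gene of the antagonist list is not reported here and enters no count or median of the lists.

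Depth was derived from 6693 genes with a single coding transcript, as the mode of FPKM multiplied by effective length (length less 200 bases, plus 1) at 1 fragment. Of values between 0.5 and 1.5 fragments, 78.6% to 80.1% lay within 0.1 of 1. The use of effective length was decided after seeing the values. Length and GC content were taken from GENCODE M21, for each gene's longest coding transcript (GRCm38), and 15474 of 15554 rows were matched, 749 by an older symbol. Intervals of single values are exact Poisson and those of ratios exact binomial intervals. Scripts were tested on simulated data and used Python 3.11.15, matplotlib 3.10.9, scipy 1.17.1, numpy 2.4.6 and pandas 2.3.3. The alternatives were pseudocounts of 0.5, 0.1 and none, a minimum mean FPKM of 1, scaling of the upper quartiles, and subtraction of running medians (500 genes) of the change by expression, by length, or by length and GC content.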

Additional observations from a re-analysis of the deposited data

Results flagged for a closer look

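*Id1* was the only member whose changes by the 2 stimuli had opposite signs. The change was -0.12 by GDF15, with a counting interval of -0.33 to 0.08, and 0.28 by TGF-β, with an interval of 0.08 to 0.49. With 1 library per treatment the difference between the stimuli was not tested against replicates. The sign by GDF15 was positive after correction for length (0.10) and for length and GC content (0.15).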

How the results depend on the processing

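No paired analysis was possible because there is 1 library a treatment, which also means that none could be omitted. Of 192 values under the alternatives for members with a counting interval, 160 stayed within it, 32 moved beyond it and 0 members over 1.5-fold changed sign. The 24 values without an interval (*Bmp4*, and *Grem1* by TGF-β), listed at 0 in both libraries, were at most 0.115 in size. The alternatives without a pseudocount and with a minimum mean FPKM give no value for members at 0 or below the minimum.

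The pseudocount moved counts most. With GDF15, 71 genes passed 2-fold at a pseudocount of 0.5, 315 at 0.1 and 589 without one, and 1099 and 1333 passed 1.5-fold at 0.1 and without one. With TGF-β, 489 and 789 passed 2-fold and 1544 and 1702 passed 1.5-fold at 0.1 and without one. Between the stimulated libraries, 32, 227 and 525 passed 2-fold and 260, 929 and 1145 passed 1.5-fold at 0.5, 0.1 and without one. At 0.1 and without a pseudocount, 1 member (*Fst*) passed 2-fold by GDF15 and 1 by TGF-β, 4 members passed 1.5-fold by GDF15, and of the 34 pathway genes 7 passed 1.5-fold by GDF15 and 2 between the stimulated libraries. By construction a smaller pseudocount lets genes of low FPKM pass. With correction for length, 185 genes passed 1.5-fold by GDF15, and with correction for length and GC content 1 member (*Fstl1*) did. With either correction 1 of the 34 pathway genes (*Sparcl1*) passed 1.5-fold by GDF15, and *Inha* did not. By TGF-β, 5 of the 34 passed as reported (1 higher), 6 with correction for length (2 higher) and 7 with correction for length and GC content (3 higher). *Id3* fell under 1.5-fold by TGF-β with a common upper quartile (-0.56) and when corrected for expression (-0.55), length (-0.46) or length and GC content (-0.42). With the minimum mean FPKM, the median change by TGF-β over the 4 members left was 0.52. Depth limits *Id2*, *Id4*, *Bambi*, *Grem1* and *Fst*, with at most 50 estimated fragments in any library.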
